A study of Mus musculus with 6 samples.

Results

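Pdgfa, Lgals1 and Ctxn3 are 3 of the 17027 genes listed in an RNA-seq table of mouse retinal ganglion cells (RGCs), the neurons whose axons form the optic nerve. They were chosen by the values described here, for a high mean at postnatal day 5 (P5) and low means at embryonic day 18 (E18) and in the adult, so their levels and the differences between ages are a description and carry no test. The 3 genes hold 10 of the listed isoforms: 6 of Pdgfa, 1 of Lgals1 and 3 of Ctxn3. All 3 genes passed the filter on low values that left 14390 genes for testing. The RGCs came from wild-type mice of strain C57/6NCrl at E18, at P5 and, as the Adult group, at 8 weeks, and each of these ages has 2 of the 6 libraries. The cells were bound to a surface coated with antibody to Thy1 after macrophages, and by the protocol of the samples also amacrine cells, had been removed in the same way. The labels do not state whether both libraries of 1 age stem from different animals, so their spread, and the p-values that rest on it, may be technical.

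Pdgfa encodes platelet-derived growth factor A, a secreted ligand that pairs into a dimer and acts on the receptor encoded by Pdgfra. In the developing retina, PDGF-A from RGCs is known to act on astrocytes that carry this receptor and spread over the inner surface from the optic nerve, ahead of the growing blood vessels. Lgals1 encodes galectin-1, a small lectin that binds beta-galactosides on glycoproteins such as integrins, laminin and neuropilin-1 and has been linked to axon growth. Ctxn3 encodes cortexin 3, a short protein with a single membrane-spanning stretch, found mainly in brain and kidney, whose role is little known.

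Levels are FPKM (fragments per kilobase of transcript length and unit of mapped fragments), summed over the isoforms of a gene. The deposited FPKM carry no read counts, so depth is unknown and precision rests on the 2 libraries of each age. The labelled cell type could be checked against 16 RGC markers, all of them listed. Their median level was 137 and 170 FPKM in the E18 libraries, 176 and 135 at P5, and 23.5 and 12.4 in the Adult libraries. Between P5 and Adult, 15 of the 16 fell (limma, adjusted p under 0.05), where 33.7% of all genes fell. Rod genes summed to at most 12.1 FPKM in the E18 and P5 libraries, but to 5748 and 698 FPKM in the Adult libraries. The median marker of Müller glia was at most 0.814 FPKM at the younger ages and 27.4 and 35.8 in Adult, and that of amacrine cells at most 2.95 and then 65.4 and 94.8. Bipolar and cone cell medians were at most 0.323 FPKM before adulthood and between 7.82 and 12.7 in Adult. Single members weighed on some sums. The bipolar sum was 245 and 254 FPKM at E18 and 111 and 124 in Adult. Its member Isl1, also an RGC marker, was at 238 and 245 and then at 9.18 and 8.52. For amacrine cells, the E18 libraries summed to 798 and 764 FPKM, the P5 libraries to 1038 and 942, and the Adult libraries to 1346 and 1508. Their marker Calb2 peaked at P5, where its 815 and 678 FPKM exceeded every other library. It had 515 and 518 FPKM in the E18 libraries and 253 and 156 in the Adult libraries. Many of these markers reach 1 FPKM, the lowest peak level in the table, only in Adult, so no test of them is given. E18 library 1 also stood apart: its median progenitor marker was at 10.1 FPKM against 0.559 in E18 library 2, with Ccnd1 at 40.1 against 3.26, and its red blood cell genes summed to 16.2 against 1.05 FPKM. Protein-coding genes made up 38.0% and 33.7% of the summed FPKM of the Adult libraries, against 70.8% to 76.0% at the younger ages. In bulk RNA, fewer cells of a type and less RNA per cell cannot be told apart, and neither can a lower share of RGCs and lower expression in them. The part of these differences in the E18 and Adult values below was not tested.

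Pdgfa stood at 3.60 and 4.38 FPKM at E18. The P5 libraries held 24.7 and 26.1 FPKM, and the Adult libraries 5.43 and 6.08 FPKM. Both P5 libraries lay far above all 4 others, and the 2 libraries of each age were close to each other. The means were 3.99 ± 0.548 FPKM at E18, 25.4 ± 1.01 at P5 and 5.75 ± 0.458 in Adult (SD, n = 2), so the P5 mean was 6.36 times that at E18 and 4.41 times that in Adult. On the scale of log2(FPKM + 1), the difference was 2.41 from E18 to P5 and -1.97 from P5 to Adult. Adult and E18 levels did not overlap, but their small difference of 0.44 on this scale turned to -0.08 when each library was rescaled to the same FPKM sum (TPM).

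Lgals1 was measured at 4.64 and 3.81 FPKM at E18, 47.6 and 19.4 at P5 and, in Adult, 7.47 and 5.64. Both P5 libraries were again above all others, but they differed from each other 2.46 times, the widest gap among the 3 genes. The lower P5 library was still 4.18 times the higher E18 library and 2.59 times the higher Adult library. The means were 4.23 ± 0.585, 33.5 ± 19.99 and 6.56 ± 1.29 FPKM (SD, n = 2), and the difference of log2(FPKM + 1) was 2.60 from E18 to P5 and -2.07 from P5 to Adult. Adult lay above E18 by 0.53 on this scale, and by only 0.01 after rescaling to TPM.

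Ctxn3 had the lowest levels of the 3 genes, with 1.39 and 0.765 FPKM at E18, 15.3 and 10.5 at P5 and, in Adult, 2.77 and 1.17. The P5 libraries did not overlap with any other, while those of E18 and Adult did overlap with each other. The means were 1.08 ± 0.443, 12.9 ± 3.38 and 1.97 ± 1.13 FPKM (SD, n = 2). The P5 mean was 11.96 times the E18 mean, the largest ratio of the 3 genes. The difference of log2(FPKM + 1) was 2.74 and then -2.26.

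**Figure D1:**
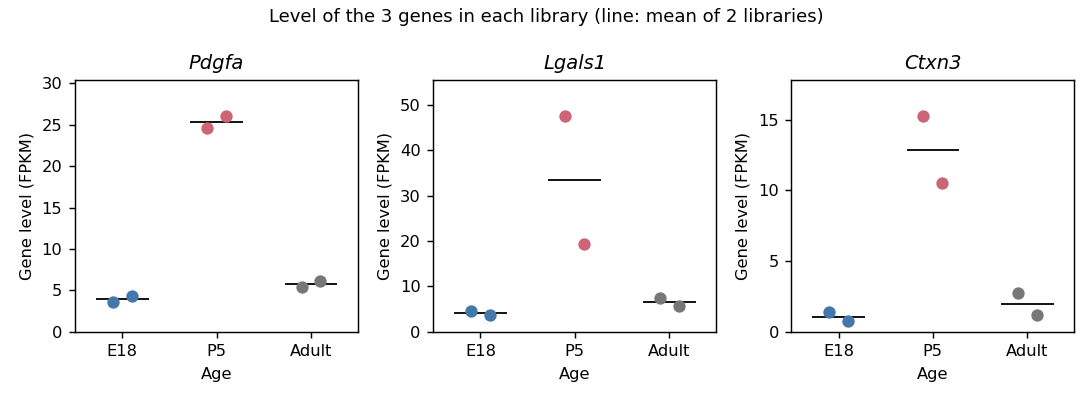
Level in FPKM (vertical axis, linear, from 0) of Pdgfa, Lgals1 and Ctxn3 at E18, P5 and in Adult (horizontal axis), with 1 point per library and a line at the mean of the 2 libraries. In each panel both P5 points lie above the 4 others, close together for Pdgfa (24.7 and 26.1 FPKM) and far apart for Lgals1 (47.6 and 19.4 FPKM).

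The same shape was common in weaker form. Among the 14390 tested genes, 2104 (14.6%) had both P5 libraries above all 4 others, and 1975 (13.7%) had both below. Only 46 genes (0.32%) had a lowest P5 value that exceeded the highest other value by at least 1 on the log2(FPKM + 1) scale. By this margin Pdgfa ranked 3rd with 1.86, Ctxn3 4th with 1.61 and Lgals1 20th with 1.27. Since this pattern is what the 3 genes were chosen by, the ranks say only where they stand.

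Pdgfa lies on chromosome 5 at 138976014 to 138997370 of GRCm38, on the minus strand. The annotation has coding transcripts that differ at both ends of the gene. At the 3′ end, the long form Pdgfa-201 includes exon 6 of its 7 exons, a segment of 69 bases at 138978622 to 138978690, which encodes a basic C-terminal stretch known to bind heparan sulfate and hold the ligand near the cell that makes it. The short forms skip this exon and end a few bases into the last one, which leaves a more diffusible ligand. The endings of both forms are shown because the long form was listed at or near 0 in Adult. Lower case marks the last 20 bases of the shared exon 5, and capitals mark the coding bases that follow, up to the stop codon, which is TAA in the long form and TGA in the short form. The coding bases in capitals lie at 138978638 to 138978690 for the long form and at 138977220 to 138977227 for the short form, and both are read on the minus strand, 5′ to 3′, from the GENCODE transcripts.
Pdgfa-201, long: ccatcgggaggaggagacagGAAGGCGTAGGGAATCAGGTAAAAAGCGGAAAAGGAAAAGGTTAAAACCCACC
Pdgfa-202, short: ccatcgggaggaggagacagATGTGAGG

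The long form replaces the 8 last coding bases of the short form with 53, so that its coding sequence has 633 bases against 588.

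Pdgfa-202, the short form with 6 exons, was the main isoform in all 6 libraries. It was listed at 1.85 and 3.96 FPKM at E18, 10.99 and 14.6 at P5 and, in Adult, 3.50 and 3.81. The P5 peak was thus present in this single isoform, with P5 libraries that did not overlap with the others. The long form Pdgfa-201 stood at 0.358 and 0.344 FPKM at E18, 2.31 and 4.28 at P5 and, in Adult, 0 and 0.026. Its share of the Pdgfa sum was 9.95% and 7.85% at E18 and 9.35% and 16.4% at P5. In Adult the share was 0% and 0.428%. Both Adult libraries were below all 4 younger ones, whereas E18 and P5 overlapped.

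The share of an isoform within its gene was not used to choose the genes, and limma was run on 40669 isoforms of genes with at least 2 isoforms and at least 1 FPKM in every library. The table lists only isoforms that reach 1 FPKM in some library, and Pdgfa-201 did so at P5 alone. It had to be lower at the other ages to that extent, so its shares are a description and no p is given for them. The mean share was 8.90% at E18, 12.9% at P5 and 0.214% in Adult, a difference of 3.98 percentage points from E18 to P5 and of -12.7 points from P5 to Adult. Pdgfa-202 reached 1 FPKM in all 6 libraries. Its share differed by -20.7 points from E18 to P5 (95% interval -54.4 to 13.0, limma adjusted p = 0.640) and by 13.4 points from P5 to Adult (95% interval -20.4 to 47.1, limma adjusted p = 0.506), and neither was called. Over all isoforms, limma called 0 shares (0%) between E18 and P5, with 4561 at an unadjusted p under 0.05, 14.4% between P5 and Adult and 12.4% between E18 and Adult.

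Each of the other Pdgfa isoforms was listed at or near 0 in some libraries. An unannotated form, nearest to Pdgfa-203, was listed at 1.38 and 0.0026 FPKM at E18, 8.86 and 3.92 at P5, and 0 in both Adult libraries. Pdgfa-203 was at most 0.0716 FPKM at E18 and 0.259 in Adult, against 1.15 and 1.10 at P5, so it too is listed through P5 alone. Pdgfa-207, a transcript with no coding sequence, reached 1.35 and 2.23 FPKM at P5 and 1.68 and 0 in Adult. Pdgfa-204 was listed at 0 in all E18 and P5 libraries and at 0.246 and 1.99 FPKM in Adult.

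**Figure D2:**
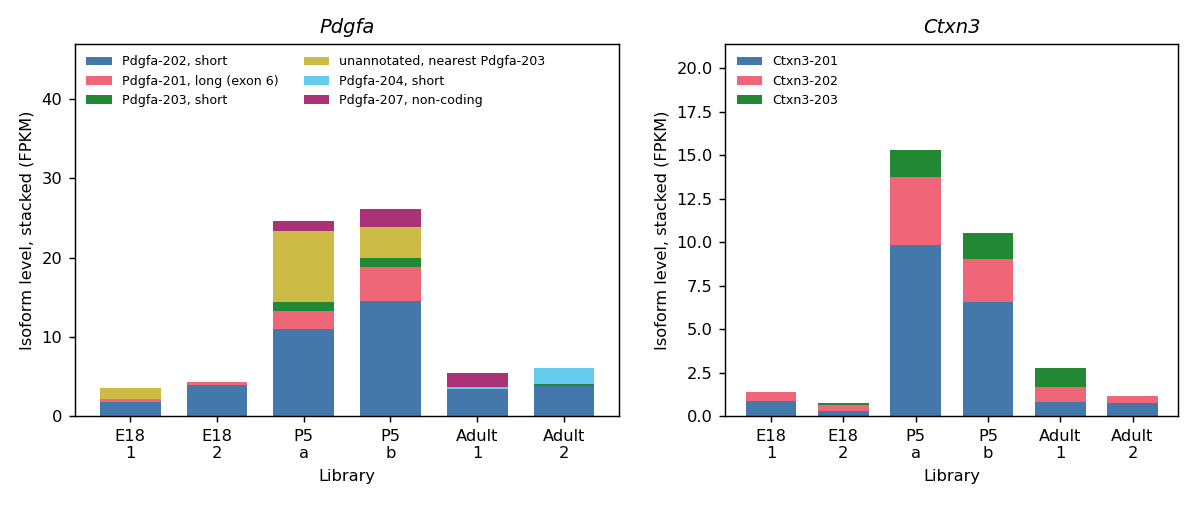
Isoform levels in FPKM (vertical axis, linear, stacked) of Pdgfa (left) and Ctxn3 (right) in each of the 6 libraries (horizontal axis), with 1 colour per isoform. Pdgfa-202 is the largest part of every Pdgfa bar, the long form is seen at E18 and P5 but is at 0 and 0.026 FPKM in Adult, and the unannotated form takes 8.86 and 3.92 FPKM of the P5 bars.

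At the 5′ end, Pdgfa is flanked by a gene on the other strand. 6330403L08Rik, a single-exon antisense gene listed in the deposited table as RP23-451A12.1, lies at 138995056 to 139000577 of chromosome 5 on the plus strand, and starts 19 bases from the start of Pdgfa-202 at 138995037. The segment below ends at that start and is shown because both genes begin in its last bases. It covers chr5:138995037-138995194 of GRCm38.p6 (RefSeq), read on the minus strand, with the 20 bases from the antisense start to the Pdgfa start in capitals.
Pdgfa start segment: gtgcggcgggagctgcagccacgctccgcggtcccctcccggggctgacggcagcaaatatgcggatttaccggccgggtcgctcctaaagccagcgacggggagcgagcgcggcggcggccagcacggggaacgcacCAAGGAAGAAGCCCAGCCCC

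The antisense gene was listed at 1.67 and 1.61 FPKM at E18, 8.57 and 6.42 at P5 and, in Adult, 2.34 and 2.51. It thus had the same order of ages as Pdgfa, with both P5 libraries above all others, and its margin of 1.08 ranked 36th of 14390 genes. It was picked out for its position after its values were seen and carries no test here. Its transcript overlaps the upstream exons of Pdgfa-203 and Pdgfa-204, with which it shares 30.2% and 25.9% of their stretches of 31 bases. The counting is not stated to use strand, so reads from these exons and from the antisense gene cannot be told apart. Pdgfa-202, Pdgfa-201 and Pdgfa-207 share none of their stretches with it. Over all Pdgfa transcripts, 23.3% of the stretches were shared with other genes, which were 6330403L08Rik, Gnaq and Kalrn. Summed over Pdgfa-202, Pdgfa-201 and Pdgfa-207 alone, Pdgfa was at 2.21 and 4.30 FPKM at E18, 14.6 and 21.1 at P5 and, in Adult, 5.18 and 3.83. The P5 mean of this sum was 5.49 times that at E18 and 3.96 times that in Adult. How reads were divided among the isoforms and the antisense gene, and their part in the Pdgfa values, was not tested.

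**Figure D3:**
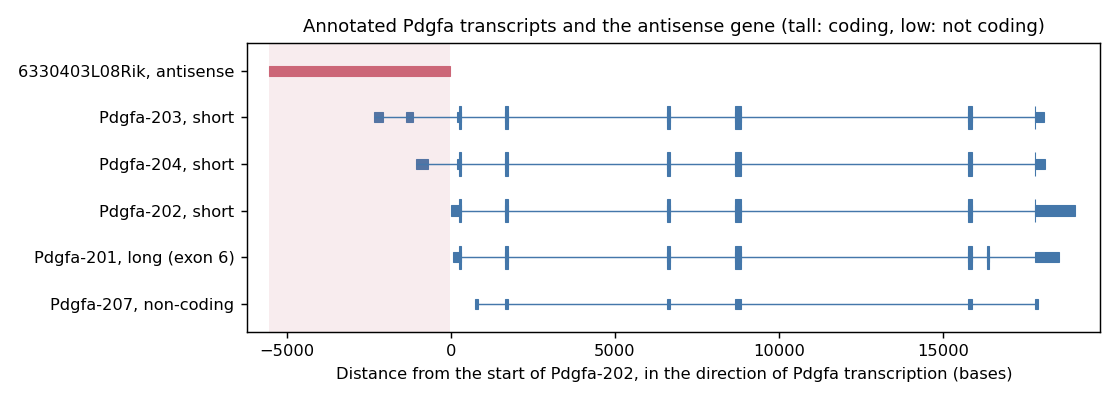
Annotated exons of 5 Pdgfa transcripts (blue) and of the antisense gene 6330403L08Rik (red, span shaded) against the distance in bases from the start of Pdgfa-202, with tall boxes for coding and low boxes for other exon parts. The first exons of Pdgfa-203 and Pdgfa-204 lie inside the antisense gene, and the long form has an exon at 16347 to 16415 bases that the short forms lack.

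Of the other 6 genes for PDGF ligands and receptors, 4 were listed and 3 tested. Pdgfb, the ligand of pericyte recruitment, rose from 1.18 and 1.49 FPKM at E18 to 5.26 and 5.50 at P5 and was at 0.329 and 0.264 in Adult. The log2 change from E18 to P5 was 1.45 (SE 0.174, limma adjusted p = 0.0113), and both P5 libraries stood above all others, with a margin that ranked 17th. Without its P5 values Pdgfb would have missed the filter of a mean of 1 FPKM, so the filter bears on this call. Between E18 and P5, 5.52% of all genes were called higher and 4.95% lower, and between P5 and Adult 26.2% higher and 33.7% lower. Pdgfra, the receptor of PDGF-A, was low at 0.238 and 0.190 FPKM at E18 and 0.0836 and 0.191 at P5, and stood at 2.01 and 3.28 in Adult. Of 9 astrocyte markers, among them Pdgfra, 5 were listed, without Gfap and Pax2. They summed to 1.58 and 1.24 FPKM in the P5 libraries and to 52.0 and 63.6 FPKM in the Adult libraries. Most of the Adult sums came from Aqp4 (19.9 and 24.8 FPKM) and Slc1a3 (27.0 and 32.9 FPKM), which are on the Müller glia list too. The part of astrocytes or Müller glia in the Adult level of Pdgfra was not tested. Pdgfd, a ligand of the PDGF-B receptor, was under 0.1 FPKM at both younger ages and at 10.2 and 11.8 in Adult. Pdgfra and Pdgfd reached 1 FPKM in Adult alone, and Pdgfb did not reach it there, so for these 3 genes no test of the Adult level is given. Pdgfrb was too low to be tested, at most 0.118 FPKM before adulthood and 1.32 and 1.60 in Adult. At P5, the ligand genes Pdgfa and Pdgfb were therefore high in libraries where both receptor genes were below 0.2 FPKM.

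Genes that process PDGF or carry its signal did not follow this course. Of all genes, 5.52% were called higher and 4.95% lower between E18 and P5. Of 4 tested proteases, none was called there. Plat, the tissue plasminogen activator, stood at 7.28 and 7.83 FPKM at E18 and 6.85 and 7.92 at P5 and fell to 3.22 and 3.33 in Adult (limma adjusted p = 0.00154). Furin, a convertase that cleaves the PDGF-A precursor, was between 2.79 and 5.17 FPKM at E18 and P5 and rose to 7.76 and 7.61 in Adult (limma adjusted p = 0.0323), a call lost after rescaling to TPM and kept in 1 of the 6 fits with a library left out. Pcsk7, another convertase, lay between 8.03 and 14.4 FPKM in all 6 libraries and was not called between P5 and Adult. Of 13 genes for proteins that act behind the receptors, 2 fell between E18 and P5 and none rose. These were Plcg1, a phospholipase, from 73.6 and 75.0 to 39.7 and 50.9 FPKM (limma adjusted p = 0.0343), and the adaptor Gab1, from 4.90 and 4.56 to 1.63 and 2.65 FPKM (limma adjusted p = 0.0452). The call of Plcg1 was lost on the protein-coding total, and that of Gab1 there, after rescaling to TPM and with quantile normalization. Crk and Rasa1, the 2 other most abundant of this list, differed by 0.11 and 0.01 on the log2 scale between E18 and P5 and were not called.

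Lgals1 lies on chromosome 15 at 78926725 to 78930465 of GRCm38 on the plus strand, overlaps no other annotated gene and shares no stretch of 31 bases with another gene's transcripts. Its only listed isoform, Lgals1-201, has 4 exons, 800 bases and a coding sequence of 405 bases. Its level is therefore a single value per library. Galectin-1 is also made by endothelial cells, pericytes and fibroblasts, so their markers were read beside it. Of 10 endothelial markers 4 were listed, with sums of 11.4 and 4.28 FPKM at E18, 7.80 and 4.36 at P5 and, in Adult, 37.0 and 41.3. At P5 the higher endothelial sum was in library a, which also had the higher Lgals1 level, and this came mainly from Egfl7 at 6.47 against 2.71 FPKM. Of 8 pericyte markers 2 were listed, with sums of at most 0.175 FPKM at E18, 1.36 and 0.762 at P5 and, in Adult, 8.30 and 13.0. Of 6 fibroblast markers only Pdgfra was listed, and of 12 macrophage markers only C1qa, which was at 0 in both P5 libraries. Flt1, Rgs5 and Pdgfra, of the 5 tested markers of these lists, passed the filter only through Adult. No call between E18 and P5 is therefore read from them. Rgs5 stood at 0.0565 and 0.0613 FPKM at E18 and at 1.35 and 0.747 at P5. Egfl7 and Kdr were not called between E18 and P5, where 5.52% of all genes were called higher and 4.95% lower. Each list summed higher in Adult than at the younger ages. The part of these cells in the Lgals1 level was not tested.

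None of the 5 other galectin genes tested was called between E18 and P5, where 5.52% of all genes were called higher and 4.95% lower. The interval of Lgals4 in this comparison was -1.09 to -0.03 on the log2 scale. Lgals7 stood at 9.87 and 8.91 FPKM at E18 and 11.3 and 12.1 at P5, and was listed at 0 in both Adult libraries. Lgals8 was at 19.5 and 26.0 FPKM at E18 and 24.6 and 27.0 at P5, and Lgalsl, a galectin-like protein, at 46.5 and 56.6 and then 59.0 and 57.4. From P5 to Adult both fell (limma adjusted p = 0.0287 and 0.0384), calls that were lost when values were scaled to the protein-coding total (that of Lgalsl also with quantile normalization) and kept in 3 and 1 of the 6 fits with a library left out. Lgals4 and Lgals3bp, a glycoprotein bound by galectins, rose from P5 to Adult, from 1.35 and 2.30 to 4.60 and 3.75 FPKM and from 1.25 and 1.21 to 2.57 and 3.27 FPKM (limma adjusted p = 0.0136 and 0.00977). Both of these calls were lost after rescaling to TPM, that of Lgals3bp also with quantile normalization, and that of Lgals4 was kept in 4 of the 6 fits with a library left out. Lgals3bp was at 0.722 and 0.683 FPKM at E18, and without its Adult values it would have missed the filter of a mean of 1 FPKM. The filter therefore bears on its call. Lgals9 was under the filter but had the order of the chosen genes, with 0.207 and 0.125 FPKM at E18, 1.53 and 1.26 at P5 and, in Adult, 0.677 and 0.881. Lgals3 reached 1.22 FPKM in 1 Adult library and was at most 0.318 elsewhere. By the difference of log2(FPKM + 1) between E18 and P5, on which it was chosen, Lgals1 stood above the 5 tested galectin genes, whose differences lay between -0.56 and 0.39. Lgals9 is not among these 5, and its P5 mean was 8.42 times its E18 mean, against 7.93 times for Lgals1.

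Of 9 tested genes for binding partners of galectin-1, 3 rose between E18 and P5 and none fell. Of all genes, 5.52% were called higher and 4.95% lower there. Itgb1, the integrin beta-1 subunit, rose from 33.9 and 32.6 FPKM to 64.3 and 62.5 and fell to 12.3 and 11.6 in Adult. The log2 changes were 0.91 (SE 0.0977, limma adjusted p = 0.00958) and -2.31 (limma adjusted p = 3.05e-05). Lamb1, the laminin beta-1 chain, rose from 8.90 and 9.25 to 27.2 and 31.7 FPKM (log2 change 1.59, SE 0.152, limma adjusted p = 0.00808) and fell back to 9.05 and 11.5 (limma adjusted p = 0.000468). Lamp1, a lysosomal membrane glycoprotein, rose less, from 108 and 110 to 143 and 150 FPKM (log2 change 0.42, limma adjusted p = 0.0351), and fell to 67.0 and 65.8. In all 3 of these genes both P5 libraries lay above the 4 others. The partners did not all do so: Hras, a signalling GTPase, was at 62.1 and 75.8 FPKM at E18 and 80.5 and 71.4 at P5, not called, and 35.8 and 41.0 in Adult. Between E18 and P5, Nrp1 and the laminin chains Lama1 and Lamc1 differed by -0.01, -0.32 and -0.05 on the log2 scale. Itga7 and Plxna4 differed by 0.80 and 0.32, and none of these genes was called. The median of the 9 genes changed by 0.32 from E18 to P5 and by -0.97 from P5 to Adult, where the median of all tested genes was -0.03 and -0.07.

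**Figure D4:**
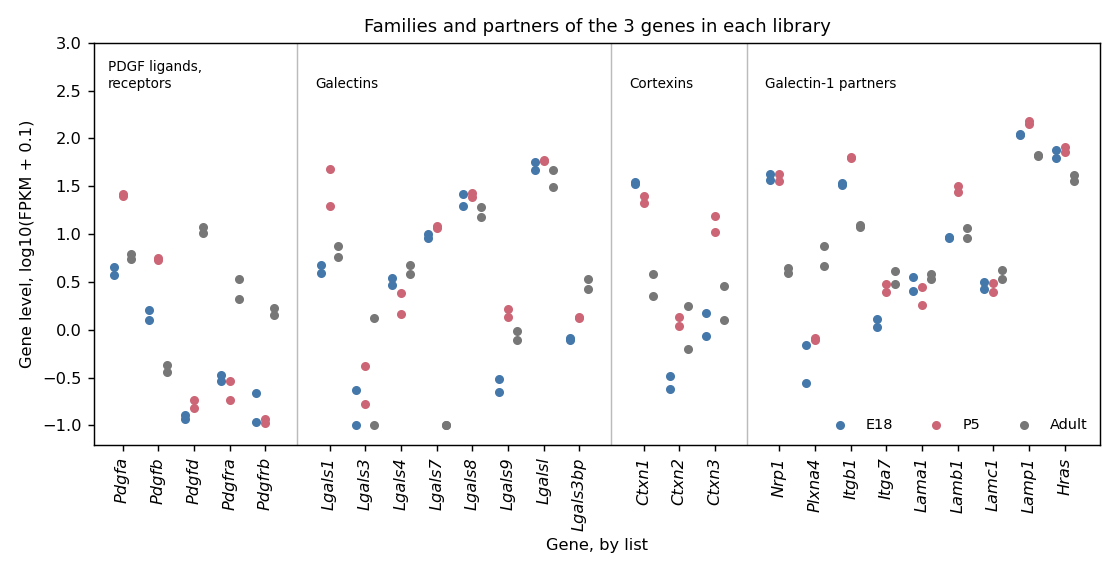
Level of each gene, as log10(FPKM + 0.1) on the vertical axis, in the 2 libraries of each age (colours) for the PDGF ligands and receptors, the galectins, the cortexins and the partners of galectin-1 (horizontal axis). P5 points stand above both other ages for Pdgfa, Pdgfb, Lgals1, Ctxn3, Itgb1 and Lamb1, and also for Lamp1, Lgals7, Lgals9 and Lgalsl. Pdgfd and Pdgfra are high only in Adult, and Lgals7 is listed at 0 there.

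Ctxn3 lies on chromosome 18 at 57468516 to 57478133 of GRCm38 on the plus strand. An antisense gene, 4930511M06Rik, overlaps its locus but shares no stretch of 31 bases with its transcripts. Ctxn3-201, with 2 exons and a coding sequence of 240 bases, was the most abundant isoform at P5 with 9.87 and 6.56 FPKM, against 0.883 and 0.292 at E18 and 0.839 and 0.792 in Adult. Ctxn3-202 was listed at 0.508 and 0.378 FPKM at E18, 3.89 and 2.46 at P5 and, in Adult, 0.869 and 0.376. The table gives it 1526 bases, where the annotation has 595. Ctxn3-203 starts at another site, codes for the same number of bases as Ctxn3-201, and was at 0 and 0.0949 FPKM at E18, 1.53 and 1.49 at P5 and, in Adult, 1.06 and 0. Each of the 3 isoforms thus had its highest values in both P5 libraries. Ctxn3-201 and Ctxn3-202 reached 1 FPKM at P5 alone and are listed through it, so for them this order was set by the listing. At P5 the shares of the 3 isoforms were alike in both libraries, with 64.6% and 62.4% for Ctxn3-201. At the other ages they rested on gene sums between 0.765 and 2.77 FPKM, and the shares were not tested, because the gene was below 1 FPKM in 1 E18 library.

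The other cortexin genes had different courses. Ctxn1, the brain cortexin, was at 34.9 and 33.3 FPKM at E18 and 20.8 and 25.1 at P5, not called (limma adjusted p = 0.145), and fell to 3.73 and 2.13 in Adult (log2 change -2.63, SE 0.212, limma adjusted p = 0.00018). Per length of transcript, Ctxn1 was therefore above Ctxn3 in all 6 libraries. Ctxn2 was below the filter, at 0.142 and 0.229 FPKM at E18, 1.26 and 0.989 at P5 and, in Adult, 0.523 and 1.65, where P5 and Adult overlapped.

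Of all genes, 5.52% were called higher and 4.95% lower between E18 and P5. Among 18 tested genes of other secreted growth factors, 1 was called there. This was Vegfa, the main growth factor of blood vessels, with a course opposite to that of Pdgfa. It stood at 62.4 and 73.1 FPKM at E18, fell to 18.4 and 18.5 at P5 (log2 change -1.82, SE 0.128, limma adjusted p = 0.00453) and rose to 57.9 and 68.0 in Adult (log2 change 1.71, limma adjusted p = 0.000144). Both P5 libraries were below all 4 others. Ptn, pleiotrophin, was the most abundant of the list, at 84.6 and 113 FPKM at E18 and 76.3 and 82.8 at P5, and fell to 42.7 and 58.6 in Adult (limma adjusted p = 0.0271), a call lost with quantile normalization and on the protein-coding total and kept in 3 of the 6 fits with a library left out. Hbegf was between 14.4 and 30.2 FPKM in all libraries and was not called in any comparison.

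Over all 7 lists, without the 3 chosen genes, 53 genes were tested. Between E18 and P5, 4 rose and 3 fell. The 4 were Pdgfb, Itgb1, Lamb1 and Lamp1 and the 3 were Plcg1, Gab1 and Vegfa, of which Lamb1 and Gab1 are named after their values were seen. Pdgfb passed the filter on low values only through P5, so the filter bears on its call. Without P5 library a none of the 7 was called, and without an E18 library 1 or 2 genes of the lists were. Over all 14390 genes, the calls fell likewise, from 1507 to 10 without P5 library a and to 28 and 117 without an E18 library. The 7 changes kept their direction over the 6 fits with a library left out. The log2 change lay between 1.36 and 1.55 for Pdgfb and between -1.93 and -1.70 for Vegfa. For Itgb1 it was 0.89 to 0.94, for Lamb1 1.48 to 1.70 and for Lamp1 0.39 to 0.45. The sizes of Gab1 (-1.12 to -0.65) and Plcg1 (-0.89 to -0.54) moved more. Gab1 and Lamp1 lost the call in each of these fits. Between P5 and Adult, 20 were called higher and 22 lower. Of the 20, 6 were under 1 FPKM in all E18 and P5 libraries, and 2 of the 22, Pdgfb and Lgals7, were under it in both Adult libraries, so the filter on low values bears on these calls. The 6 leave out genes such as Lgals3bp, which exceeded 1 FPKM at P5 but had a high enough mean for the filter only through Adult. Between E18 and Adult 14 were called higher and 20 lower, against 25.3% of all genes higher and 34.4% lower in the last comparison. The balance of these calls depended on scaling: after rescaling to TPM, 9 rose and 30 fell from P5 to Adult, and on the protein-coding total 22 rose and 17 fell. These scalings moved the median of all genes from -0.07 to -0.76 and to 0.20. Over all genes, the P5 to Adult calls were 3767 higher and 4843 lower, against 1709 and 8603 after rescaling to TPM and 5270 and 3356 on the protein-coding total. From E18 to Adult they were 3638 higher and 4950 lower, against 2047 and 8138 and against 5385 and 3340. From E18 to P5 they were 795 higher and 712 lower, against 1479 and 466 and against 851 and 512.

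The genes most like each of the 3 in their course were found among 11852 protein-coding genes by the root mean square difference of log2(FPKM + 1), centred on the mean of each gene over the 6 libraries, given with Pearson's r over the same libraries. These are descriptions over 3 ages, and every pair shares the same 6 libraries. For Pdgfa they were Trhr, the receptor of thyrotropin-releasing hormone (0.18, r = 0.985), Camk4, a calcium-dependent kinase (0.22, r = 0.998), Ajap1 (0.27, r = 0.972), Slc35f4 (0.30, r = 0.991) and AC148986.1 (0.31, r = 0.957). Camk4 was close in level too, at 6.21 and 6.84 FPKM at E18, 26.8 and 27.3 at P5 and, in Adult, 7.28 and 8.91. Trhr was far lower, at most 0.00342 FPKM at E18, 4.58 and 3.51 at P5 and, in Adult, 0.574 and 0.311. Its P5 mean was 2299 times its E18 mean, against 6.36 times for Pdgfa, so its closeness rests on the log2(FPKM + 1) scale. For Lgals1 the nearest gene was Ctxn3 (0.27, r = 0.975), followed by AC148986.1 (0.30, r = 0.971), Trhr (0.31, r = 0.973), Hspb1, a small heat shock protein (0.32, r = 0.978), and Serpinb1b, a protease inhibitor (0.41, r = 0.992). Hspb1 also had its higher P5 value in library a, 51.8 against 23.2 FPKM, a ratio of 2.24 beside 2.46 for Lgals1. Serpinb1b and Trhr were under 1 FPKM in all E18 and Adult libraries and passed the filter on low values only through P5. For Ctxn3 the order was Lgals1, Trhr (0.29, r = 0.986), Pdgfa (0.40, r = 0.951), AC148986.1 (0.41, r = 0.947) and Hspb1 (0.44, r = 0.948). The chosen genes were thus among the nearest to each other, with Ctxn3 in the 15th place and Lgals1 in the 21st for Pdgfa, a closeness that follows from choosing them by 1 pattern.

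**Figure D5:**
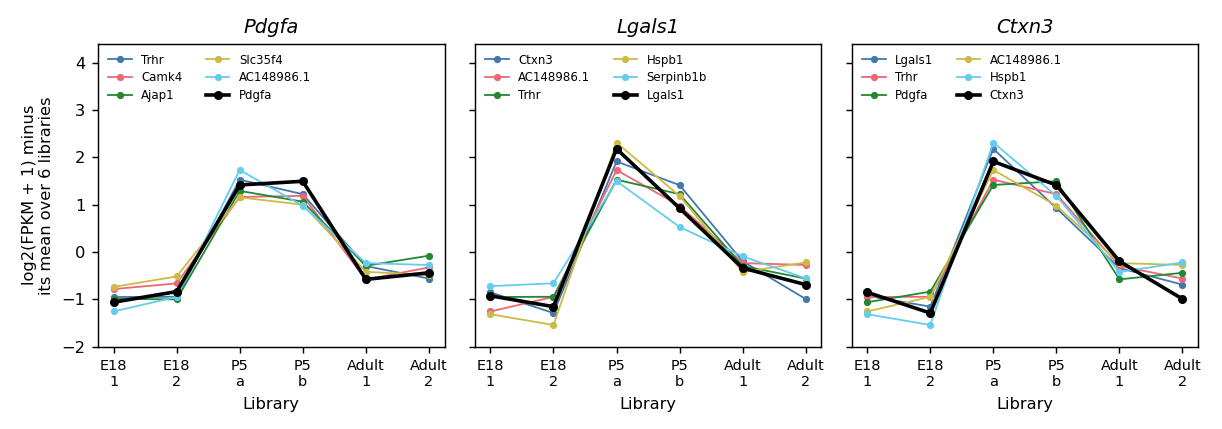
Course of Pdgfa, Lgals1 and Ctxn3 (black) and of the 5 genes nearest to each (colours), as log2(FPKM + 1) minus the mean of the gene over the 6 libraries (vertical axis), in each library (horizontal axis). Pdgfa and Camk4 are level between the P5 libraries, whereas Lgals1, Hspb1 and Serpinb1b are higher in P5 library a than in b.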

How the data were processed

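RNA-seq of polyA-selected RNA from RGCs was used as the authors deposited it, as isoform FPKM. Per the submitters' processing notes, reads were mapped to mm10 with HISAT2 and quantified with Cufflinks and Cuffdiff; versions, scaling between libraries and use of strand are not given in the sources used here. The table lists 50829 isoforms, each with a highest value of at least 1.00 FPKM, and 0.0001 in place of 0, which was set to 0. Since both P5 columns have the same header, a and b name the P5 libraries. Another 10 columns of per-sample values were left out. Loci, transcripts and sequences are from GENCODE M21 (GRCm38) and RefSeq (GRCm38.p6).

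Isoform FPKM were summed per gene symbol. Genes with a mean of at least 1 FPKM were fitted as log2(FPKM + 1) with limma 3.58.1 in R 4.3.3 (lmFit, eBayes with trend), with age as the factor and all 6 libraries in 1 fit (3 residual degrees of freedom, prior 3.26). This scale understates changes of low genes. Isoform shares were fitted likewise in percentage points. Tests were two-sided, Benjamini-Hochberg adjusted over all features of each comparison, with calls at an adjusted p under 0.05. On simulated data the gene fit between E18 and P5, over 14390 genes, recovered 47% of changes of log2 1 and 91% of log2 2, with 5 false calls among 143. The changed genes were drawn only from those with a mean log2(FPKM + 1) above 2, so this recovery does not cover lower genes. The share fit, over 40669 isoforms, recovered 27% of changes of 20 points and 63% of 40 points, with 0 false calls among 90.

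The 3 genes and all lists were chosen with earlier results of these data known. Named are the 3 genes with their isoforms, the genes of the PDGF, galectin and cortexin lists, and the tested partners of galectin-1. Also named are the 3 most abundant genes of each other list and the 5 nearest protein-coding genes of each chosen gene. Some cell type markers are named after their values were seen. Alternatives were other scalings, a pseudocount of 0.1, no filter, a log2 scale and a filter of 5 FPKM for shares, a replicate block, and leaving out each library.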

Additional observations from a re-analysis of the deposited data

How the results depend on the processing

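The P5 peak of the 3 genes kept its direction under every scaling, pseudocount and left-out library. The log2 difference from E18 to P5 became 2.65 for Pdgfa and 3.19 for Ctxn3 after rescaling each library to the same FPKM sum (TPM), and 2.65 and 3.49 with a pseudocount of 0.1. From P5 to Adult it became -2.73 for Pdgfa and -3.05 for Ctxn3 after rescaling to TPM, -1.68 for Pdgfa on the protein-coding total and -2.12 for Pdgfa with a pseudocount of 0.1. Values of Lgals1 moved by less than the spread between libraries. With a library left out, 0 to 5 genes of the lists were called between E18 and P5, in place of 7 (4 without either Adult library), while over all genes 10 to 642 were called in place of 1507. The number of Pdgfa isoform shares called was 0 to 3 between P5 and Adult, in place of 1, and 0 to 2 between E18 and Adult, in place of 0. The 1 is the long form, which is listed through P5 alone. Without either E18 or either P5 library, 0 of all 40669 shares were called between P5 and Adult, in place of 5875, with at least 10153 at an unadjusted p under 0.05 in limma. On the log2 scale, 2 shares were called there, those of Pdgfa-203, listed through P5 alone, and Pdgfa-204, listed through Adult alone. With the added pseudocount of 1 FPKM, this scale moves with the gene sum: Pdgfa-204, at 0 in all E18 and P5 libraries, differed by -2.41 between these ages. With a filter of 5 FPKM no isoform of the 3 genes was left. The replicate block could be fitted for E18 and Adult only, where it called 35 genes of the lists, against 36 in the fit of the same 4 libraries without the block and 34 with all 6 libraries. The same-numbered E18 and Adult libraries are known to share only a number. Their deviations correlated at 0.02 over 14390 genes, which does not settle whether they share a preparation. Without counts, the precision of isoforms under 1 FPKM, such as the long form in Adult, is unknown.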
